A study of Mus musculus with 12 samples.

Results

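The genes described here encode the respiratory chain, the set of inner mitochondrial membrane complexes that oxidise NADH and succinate and make ATP. They were taken from the gene table by symbol, as names beginning with Nduf followed by a, b, c, s or v, Sdha to Sdhd, Uqcr, Cox4 to Cox8, Atp5, and the mitochondrial genes mt-Nd, mt-Co, mt-Atp and mt-Cytb, without names that carry -ps. This gave 111 of 55450 gene IDs, 98 in nuclear DNA and 13 in mitochondrial DNA. RNA was sequenced from 3 sorted populations of mouse thymic CD4+ cells, at 4 libraries each. Eos+ Tregs were CD4+Foxp3+Ccr6+Cxcr4+ cells, Eos- Tregs were CD4+Foxp3+Ccr6-Cxcr4- cells, and conventional T cells (Tconv) were CD4+Foxp3- cells. The mice of all 3 populations were CD4-Cre x Foxp3-GFP, so that CD4 sequences drive Cre and a green fluorescent reporter marks Foxp3. Ikzf4 encodes the transcription factor Eos, and the labels use Eos+ and Eos- for the sorted state of the cells. The age of the mice, any target allele of the Cre and whether replicates were separate animals are not given in the labels, so p-values measure the spread between libraries, which may in part be technical. Each replicate's library names carry 1 code that the 3 populations share, and the labels do not say what it stands for.

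Complexes I to IV pass electrons along the inner membrane and complex V, the ATP synthase, uses the proton gradient that complexes I, III and IV build. Complex II is built from nuclear genes alone, whereas each of the others joins subunits translated in the cytosol to a core of subunits translated inside the mitochondrion from mitochondrial DNA. Regulatory T cells are known for relying more on oxidative metabolism than activated conventional T cells, and deletion of complex III in mouse Tregs impairs their suppressive function.

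Some mitochondrial genes are present a further time in nuclear DNA, and this decides which of their reads can be placed. A block of unprocessed pseudogenes on chromosome 1 matched 7 of the 13 mitochondrial genes at 99.7% to 100% identity. Gm28437 (chr1:24613189-24613971, minus strand, mm10) matched mt-Co3 (chrM:8607-9390) over 783 bases without a mismatch and was given 60.2% to 71.0% of the counts of the pair. Gm10925 took 21.1% to 34.7% of the counts shared with mt-Atp6, and Gm28661 took 12.0% to 22% of those shared with mt-Co2. Gm10222 took 79.3% to 100% of those shared with mt-Nd4l. The copy of mt-Co1, Gm29216, had 1 mismatch in 483 bases and took 22.5% to 27.9%. That of mt-Nd3, Gm28438, had 1 in 345 bases and took 0.648% to 80.9%. The sequences around these mismatches are shown because, within the matched stretch, only reads that cover them can tell the mitochondrial gene from its copy. For mt-Co1 that stretch is bases 1063 to 1545 of the transcript. The differing base is in capitals, and positions are counted from 1 at the 5′ end of the mitochondrial transcript, where the first pair differs by A1066T and the second by T3C. All sequences are of mm10, from GENCODE M21 transcripts.
mt-Co1, chrM:6390-6413, plus strand: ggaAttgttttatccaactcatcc
Gm29216, chr1:24616165-24616188, minus strand: ggaTttgttttatccaactcatcc
mt-Nd3, chrM:9459-9481, plus strand: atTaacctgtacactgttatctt
Gm28438, chr1:24613097-24613119, minus strand: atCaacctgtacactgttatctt
The copy of mt-Nd4, Gm28439, took at most 0.140%. For mt-Nd1, mt-Nd2, mt-Nd5, mt-Nd6, mt-Cytb and mt-Atp8 no annotated copy held more than 0.0295% of their counts. The search covered annotated transcripts only. mt-Atp8 (chrM:7766-7969) lies between mt-Co2 and mt-Atp6, whose copies are neighbours in the block (chr1:24614885-24615565 and chr1:24613974-24614651). An unannotated copy of mt-Atp8 there would not have been found. Levels below are those of the mitochondrial gene as deposited, and changes are also given with the counts of the copies added to it.

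Libraries held 23.9 to 37.9 M expected counts. Ikzf4 was 292 to 334 CPM (counts scaled to each library's total) in Eos+ Tregs, 155 to 181 CPM in Eos- Tregs and 22.7 to 27.4 CPM in Tconv. Of the receptors used in the sort, Ccr6 RNA was 226 to 263, 10.4 to 19.7 and 1.08 to 4.21 CPM in Eos+ Tregs, Eos- Tregs and Tconv, while Cxcr4 RNA, at 25.2 to 52.8, 22.7 to 42.3 and 7.27 to 20.5 CPM, overlapped between Eos+ and Eos- Tregs. The libraries numbered 1 stood apart from the other Treg libraries in Foxp3, at 55.0 CPM in Eos+ Tregs and 53.2 CPM in Eos- Tregs, against 485 to 862 CPM in the Treg libraries numbered 2 to 4. They also held the most erythroid and granulocyte transcripts, with 7 markers summing to 301, 272 and 224 CPM in the Eos+ Treg, Eos- Treg and Tconv library numbered 1 and to at most 27.5 CPM elsewhere. The Y-linked gene Ddx3y was at 120 to 187 CPM in the libraries numbered 1 and 3 of each group and had no count in those numbered 2 and 4. T cell markers (5 genes) summed to 3434 to 3754 CPM in Eos+ Tregs, 3858 to 4190 CPM in Eos- Tregs and 4889 to 5584 CPM in Tconv. Markers of B cells (9 genes) summed to 1397 to 1832 CPM in Eos+ Tregs, against 177 to 473 CPM in Eos- Tregs and 229 to 404 CPM in Tconv. Most of that sum was Ighm, with 1523 ± 138 CPM in Eos+ Tregs and 279 ± 118 CPM in Eos- Tregs (SD, n = 4 each), while the B cell regulator Pax5 stayed at or below 0.638 CPM in every library. Dividing-cell genes (10) summed to 133 to 383, 26.8 to 339 and 220 to 411 CPM in Eos+ Tregs, Eos- Tregs and Tconv, and double-positive thymocyte genes (8) to 187 to 466, 163 to 476 and 202 to 426 CPM. Epithelial and stromal genes (12) summed to 137 to 191, 234 to 338 and 199 to 224 CPM in the same order, NK and cytotoxic genes (6) to 118 to 182, 47.7 to 102 and 75.6 to 257 CPM, and dendritic cell and macrophage genes (10) to 16.4 to 109, 1.45 to 72.2 and 12.6 to 50.8 CPM. The part of these markers in the results below was not tested.

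All 13 mitochondrial genes and 89 of the 98 nuclear genes passed the filter on low counts. Set per kb of exon and averaged over the 12 libraries, the mitochondrial genes had the highest levels, led by mt-Atp6 at 1867 CPM per kb, mt-Co1 at 1290, mt-Co2 at 1237, mt-Cytb at 1235 and mt-Co3 at 909 CPM per kb. These encode subunits of the ATP synthase, of cytochrome c oxidase (complex IV) and of complex III. Their order leaves out the counts placed on nuclear copies, which for mt-Co3 were 60.2% to 71.0% of the pair. It therefore depends on how the shared reads were placed. Mitochondrial complex I genes lay lower, with mt-Nd1 at 571 CPM per kb and mt-Nd6, the gene on the opposite strand, at 58.2 CPM per kb. The lowest was mt-Nd4l at 2.61 CPM per kb, with 79.3% to 100% of the counts of the pair placed on its nuclear copy. With those counts added, mt-Nd4l was still only 5.88 to 14.5 CPM per library.

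The nuclear genes had a median of 95.5 CPM per kb. Atp5b, the catalytic beta subunit of the ATP synthase, led them at 622 CPM per kb, before Atp5a1, the alpha subunit, at 326, Cox4i1 at 306, Atp5g3 at 298 and Cox6a1 at 262 CPM per kb. By complex, the nuclear medians were 75.3 CPM per kb in complex I, 142 in complex II, 137 in complex III, 124 in complex IV and 157 in complex V. The alternative subunits known from muscle, lung or testis were close to absent. Cox6a2 averaged 0.0857 CPM in Eos+ Tregs, 0.299 CPM in Eos- Tregs and 0.710 CPM in Tconv, and Cox7a1 and Cox6b2 reached at most 1.40 CPM in any library. Cox4i2, the lung form, reached 0.621 CPM at most. No count was found for Cox7b2, Cox8b, Cox8c, Ndufa4l2 and the second ID of Atp5o, where a count of 0 allows up to 0.125 CPM in the shallowest library, by counting error alone. The other genes under the filter, Ndufa11b, Ndufs6b and Cox6c2, are annotated as pseudogenes and reached 0.144 CPM at most.

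**Figure D1:**
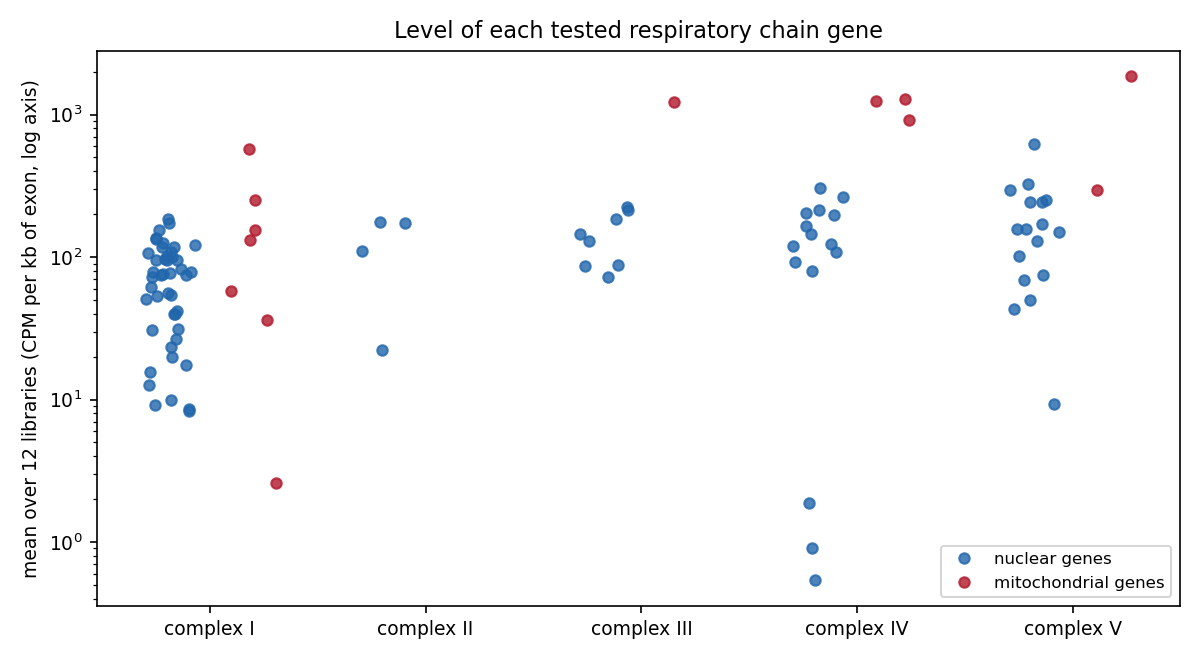
Mean level over 12 libraries of each of the 102 tested respiratory chain genes, in CPM per kb of exon on a log axis, by complex and by genome. Mitochondrial genes of complexes III, IV and V lie at 295 to 1867 CPM per kb, and the 3 lowest nuclear points of complex IV are Cox6a2, Cox7a1 and Cox6b2.

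The summed level of the nuclear genes overlapped between the 3 populations, while the summed level of the mitochondrial genes averaged lower in both Treg populations than in Tconv. The 98 nuclear genes summed to 10464, 9964, 9684 and 10241 CPM in replicates 1 to 4 of Eos+ Tregs, to 10635, 10065, 9417 and 10518 CPM in Eos- Tregs, and to 10268, 10438, 9961 and 11298 CPM in Tconv. These sums overlapped between all groups. The 13 mitochondrial genes summed to 7143, 5887, 4509.9 and 9097 CPM in Eos+ Tregs, to 5454, 7274, 6394 and 7999.9 CPM in Eos- Tregs, and to 7334, 9198, 9809.7 and 11729.8 CPM in Tconv. As deposited, all 4 numbers had a lower mitochondrial sum in each Treg population than in the Tconv library of the same number. With the nuclear copies added this held in 3 of 4 numbers for Eos+ Tregs, where number 1 had 9983 CPM against 9725 CPM in Tconv, and in 4 of 4 for Eos- Tregs. The groups overlapped in the deposited sums, since Eos+ Treg replicate 4 and Eos- Treg replicate 4 lay above Tconv replicate 1. The mean sum was 6659 ± 1949 CPM in Eos+ Tregs and 6780 ± 1102 CPM in Eos- Tregs, against 9518 ± 1812 CPM in Tconv (SD, n = 4 each). In bulk samples, fewer cells of a type and less RNA per cell cannot be told apart.

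**Figure D2:**
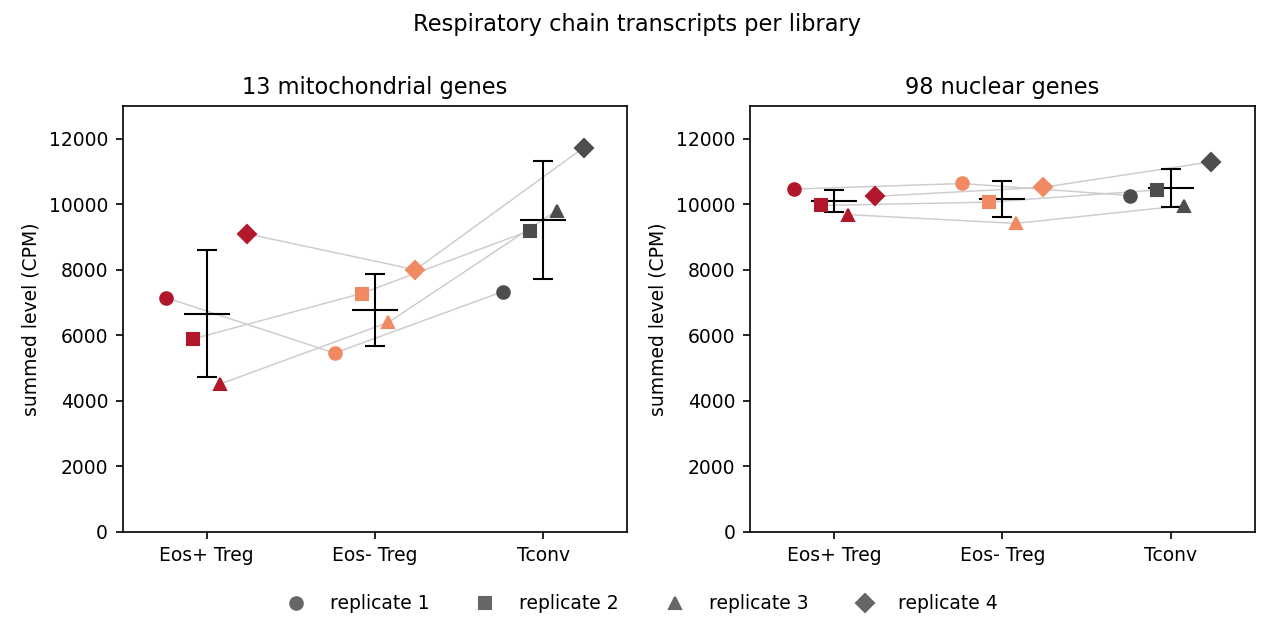
Summed CPM of the 13 mitochondrial (left) and the 98 nuclear (right) respiratory chain genes in each library, with the mean and SD of the 4 libraries in black and grey lines joining libraries of the same number. The mitochondrial sum, shown without nuclear copies, is lower in each Treg library than in the Tconv library of its number (with copies added, Eos+ Treg replicate 1 is above it), and the nuclear sums of the 3 groups overlap.

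Mitochondrial genes made up 39.1% ± 6.4 of all respiratory chain counts in Eos+ Tregs and 39.9% ± 4.14 in Eos- Tregs, against 47.3% ± 4.11 in Tconv (SD, n = 4 each). The log2 ratio of the mitochondrial to the nuclear sum differed by -0.49 between Eos+ Tregs and Tconv (-0.07, -0.58, -1.08 and -0.23 within numbers 1 to 4). In Eos- Tregs it differed from Tconv by -0.44 (-0.48, -0.29, -0.54 and -0.45 within numbers 1 to 4). Between Eos+ and Eos- Tregs the difference was -0.05, and its sign was positive in numbers 1 and 4 and negative in numbers 2 and 3. Without the libraries numbered 1 the difference was -0.63 for Eos+ Tregs against Tconv, -0.42 for Eos- Tregs against Tconv and -0.20 for Eos+ against Eos- Tregs. No test was run on these sums, because the genes were chosen with earlier results known. Both mitochondrial ribosomal RNAs, which are not among the 13 genes, summed to 1136 ± 495 CPM in Eos+ Tregs and 1237 ± 318 CPM in Eos- Tregs, against 1843 ± 458 CPM in Tconv (SD, n = 4 each). They were lower in 4 of 4 numbers in each Treg population.

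Mitochondrial genes varied more between replicates than nuclear ones. Among genes of at least 10 CPM, the median within-group SD of log2 CPM was 0.379 for 12 mitochondrial genes and 0.149 for 84 nuclear genes, beside 0.191 for all 8909 such genes. The mitochondrial genes varied together. Eos+ Treg replicate 4 held the highest value of its group for 11 of these 12 genes and replicate 3 the lowest for 11. In Eos- Tregs replicate 4 was highest for 10 and replicate 1 lowest for 11, and in Tconv replicate 4 was highest for 11 and replicate 1 lowest for 10. Among nuclear genes the SD was smallest for Atp5d, the delta subunit of the ATP synthase, at 0.0739.

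Eos+ Tregs and Eos- Tregs differed in few respiratory chain genes. The complex I assembly factor Ndufaf7 was 1.35-fold higher in Eos+ Tregs, the complex I subunit Ndufs4 was 1.35-fold lower and the supercomplex factor Cox7a2l was 1.41-fold lower. Thus 3 of 89 nuclear genes were called at an adjusted p under 0.05 (3.37%), where 16.3% of all 15361 tested genes were called. The background was 9.82% for higher and 6.45% for lower calls, with 1 and 2 nuclear genes. None of the 13 mitochondrial genes was called by edgeR, DESeq2 or limma-voom, and 0 had an unadjusted p under 0.05, beside 4459 of all 15361 tested genes. Their log2 changes ran from -0.32 to 0.17, with a median of -0.06 beside 0.00 for nuclear and for all genes. The groups did not overlap in 4 nuclear and 0 mitochondrial genes, where this held for 20% of all genes. With the replicate number as a block, under which 22.8% of all genes were called, 8 nuclear genes were called, 2 higher and 6 lower, among them Uqcr11, Uqcrfs1 and Cox7a2. Without the libraries numbered 1 the counts were again 3 and 0. The nuclear count was 1 without Eos- Treg replicate 2 and 5 without Eos+ Treg replicate 4.

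Eos+ Tregs and Tconv differed in 15 of 89 nuclear genes (16.9%), where 30.3% of all tested genes were called. Of these, 5 were higher, where 17.3% of all genes were higher, and 10 lower, where 13% of all genes were lower. Mitochondrial genes were called in 6 of 13 cases, all lower. The 13 log2 changes lay between -0.87 and -0.09 with a median of -0.52, beside -0.07 for nuclear and -0.01 for all genes. The groups did not overlap in 14 nuclear genes and 1 mitochondrial gene, where this held for 33.1% of all genes. With the replicate block, under which 36.3% of all genes were called, the nuclear count was 27, with 6 higher and 21 lower, and the mitochondrial count stayed at 6. Without the libraries numbered 1, 12 nuclear genes were called, 2 higher and 10 lower, and the same 6 mitochondrial genes. The mitochondrial count rests on few libraries. It was 0 without Tconv replicate 4, 1 without Eos+ Treg replicate 3, 2 without Eos+ Treg replicate 2 or Tconv replicate 2 and 3 without Tconv replicate 3. The nuclear count was 8 without replicate 3 of Eos+ Tregs or replicate 2 of Tconv and 9 without Eos+ Treg replicate 2.

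Eos- Tregs and Tconv differed in 4 of 89 nuclear genes (4.49%), where 14.6% of all tested genes were called. The 2 higher ones compare with 8.76% of all genes and the 2 lower ones with 5.89%. Of the mitochondrial genes 2 of 13 were called lower, and the 13 log2 changes ranged from -0.78 to 0.00 with a median of -0.46, beside -0.05 for nuclear and -0.01 for all genes. The groups did not overlap in 12 nuclear and 3 mitochondrial genes, where this held for 20.1% of all genes. With the replicate block, under which 21.5% of all genes were called, 10 nuclear genes were called, 5 in each direction, and 6 mitochondrial genes, all lower. Without the libraries numbered 1 the counts were 4 nuclear genes and 1 mitochondrial gene, mt-Co3, which is neither of the 2 called with all libraries. The mitochondrial count was 0 without Eos- Treg replicate 1, 2 or 3 or Tconv replicate 3 or 4, and 1 without replicate 1 or 2 of Eos+ Tregs, replicate 4 of Eos- Tregs or Tconv replicate 2. It was 4 without Eos+ Treg replicate 3. The nuclear count was 7 without Eos- Treg replicate 1 and 2 without Tconv replicate 1 or 2. Both comparisons with Tconv share the Tconv libraries, so their likeness is not a separate result.

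**Figure D3:**
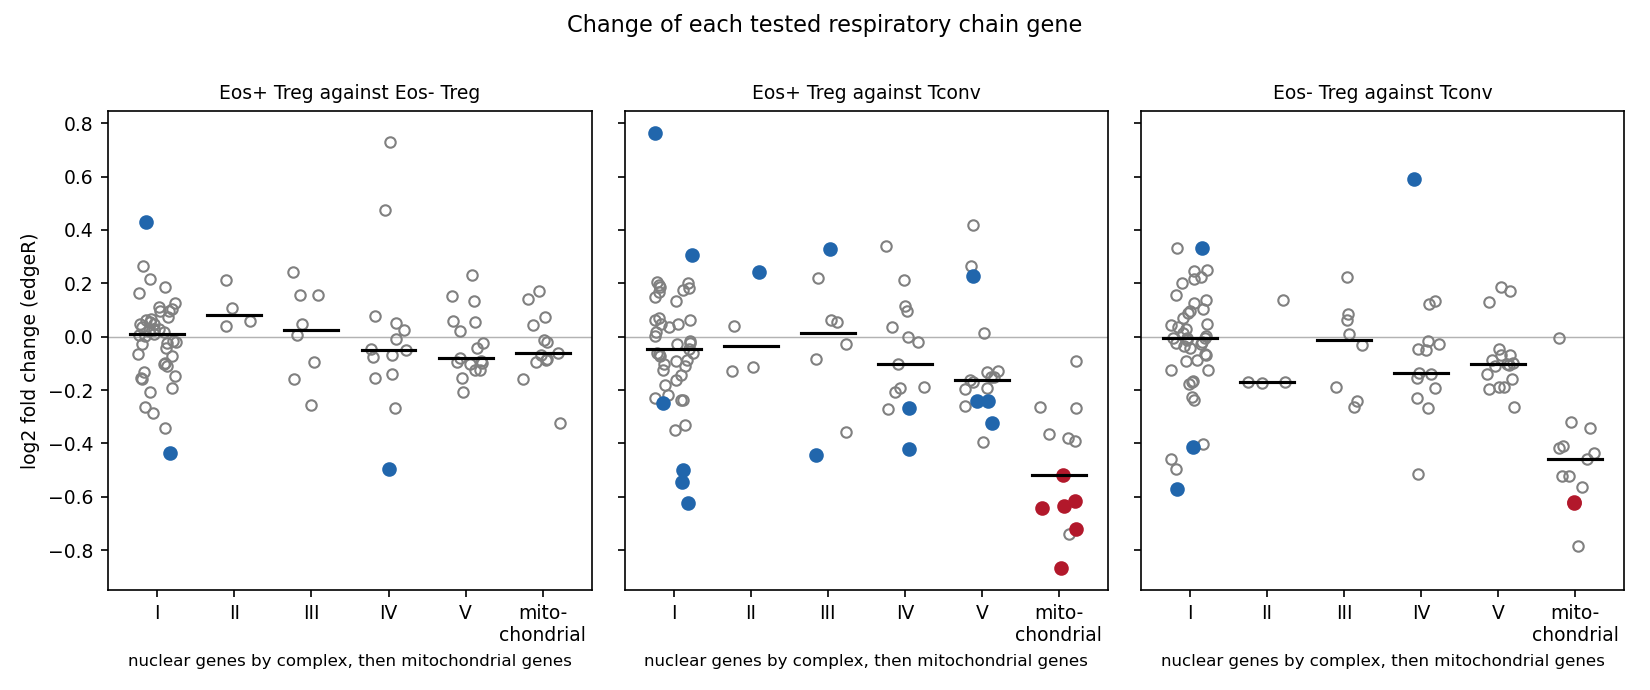
Log2 fold change of each tested respiratory chain gene in the 3 comparisons, with nuclear genes by complex I to V and the 13 mitochondrial genes on the right. Filled points passed an adjusted p of 0.05, black lines are medians, and Cox6a2, at -1.75, -3.02 and -1.27, lies outside the axis; the mitochondrial medians are -0.06, -0.52 and -0.46.

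By complex, the nuclear genes of complex V had the lowest median in Eos+ Tregs against Tconv. There 13 of its 17 tested genes had a log2 change below 0, with a median of -0.16. Of the 17, 1 was called higher and 3 lower (23.5%), where 30.3% of all genes were called. The sum of these genes leaves out Atp5s, which is not classed as a subunit. It was 3810, 3588, 3720.3 and 3777 CPM in Eos+ Tregs, 4034, 3664, 3548 and 3750.3 CPM in Eos- Tregs, and 4026 to 4213 CPM in 3 Tconv libraries with 3940 in replicate 3. The sums of Eos+ Tregs and Tconv did not overlap. In Eos- Tregs 14 of the 17 were below 0, with a median of -0.10 and 0 called by edgeR. An unadjusted p under 0.05 was found for 3 of them, beside 4250 of all 15361 tested genes. Atp5f1 (adjusted p = 0.0515) was called there in 7 of 22 alternatives, among them DESeq2, limma-voom and edgeR with the replicate block (adjusted p = 0.0170). The sum of complex II went the other way in Eos+ Tregs, at 965 ± 53.6 CPM against 896 ± 70.7 CPM in Eos- Tregs and 897 ± 42.7 CPM in Tconv (SD, n = 4 each). This sum was higher in 4 of 4 numbers against Eos- Tregs and in 3 of 4 against Tconv. Of its 4 genes, 4 were above 0 against Eos- Tregs and 2 against Tconv, where their median change was -0.04. Sdha alone was called, and only against Tconv (25%). The sum of complex III also averaged highest in Eos+ Tregs. It was 1078 ± 24.6, 1040 ± 73.1 and 1054 ± 88.1 CPM in Eos+ Tregs, Eos- Tregs and Tconv (SD, n = 4 each). In Eos+ Tregs this sum was lower in 2 of 4 numbers against Eos- Tregs and in 1 of 4 against Tconv. The medians of complexes I and III stayed within 0.05 of 0 in all 3 comparisons, and those of complex IV were -0.05, -0.10 and -0.14.

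Among mitochondrial genes, mt-Co3 showed the largest fitted fall against Tconv. This core subunit of complex IV had 605, 452, 383 and 763 CPM in replicates 1 to 4 of Eos+ Tregs, 524, 671, 498 and 639 CPM in Eos- Tregs, and 638, 1138, 818 and 1425 CPM in Tconv. Tconv replicates 2 and 4 stood far above the rest, and the groups overlapped at Tconv replicate 1. The log2 change was -0.87 ± 0.25 (SE) in Eos+ Tregs against Tconv, lower in 4 of 4 numbers (edgeR adjusted p = 0.0186), and -0.78 ± 0.25 in Eos- Tregs (adjusted p = 0.053). With Gm28437 added it was -0.79 in Eos+ Tregs (adjusted p = 0.0505) and -0.73 in Eos- Tregs (adjusted p = 0.107), so this call depended on how the shared reads were placed. Under the replicate block the adjusted p was 0.00365 and 0.0133. The call in Eos+ Tregs was lost in 5 of 22 alternatives.

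Of the 7 genes without an annotated copy of weight, mt-Nd1, mt-Atp8 and mt-Cytb were called lower in Eos+ Tregs. mt-Nd1, a membrane core subunit of complex I, had 489, 405, 343 and 598 CPM in Eos+ Tregs, 404, 463, 444 and 549 CPM in Eos- Tregs, and 596, 591, 771 and 904 CPM in Tconv. Eos- Tregs lay below Tconv in every library, and Eos+ Tregs reached into the Tconv range through replicate 4 alone. Its log2 change was -0.64 ± 0.18 (SE) in Eos+ Tregs (edgeR adjusted p = 0.0158) and -0.62 ± 0.18 in Eos- Tregs (adjusted p = 0.0339), lower in 4 of 4 numbers in each. Without Tconv replicate 4 the adjusted p was 0.0514 in Eos+ Tregs, and the call in Eos- Tregs was lost in 6 of 22 alternatives.

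mt-Atp8, a membrane subunit of the ATP synthase whose gene overlaps mt-Atp6, had 57.1, 55.9, 32.9 and 57.1 CPM in Eos+ Tregs, 44.3, 59.5, 50.3 and 50.9 CPM in Eos- Tregs, and 59.99, 84.2, 69.9 and 101.1 CPM in Tconv. Neither Treg population overlapped Tconv. Its log2 change was -0.63 ± 0.19 (SE) in Eos+ Tregs (edgeR adjusted p = 0.0241) and -0.62 ± 0.19 in Eos- Tregs (adjusted p = 0.0478), lower in 4 of 4 numbers in each. The call in Eos- Tregs was lost in 12 of 22 alternatives, limma-voom and the fit without the libraries numbered 1 among them, and that in Eos+ Tregs in 3 of 22. The fits with copies added did not cover an unannotated copy of mt-Atp8. mt-Atp6, which forms the proton channel with the c ring, had 996, 905, 825 and 1515 CPM in Eos+ Tregs, 888, 1169, 1137 and 1331 CPM in Eos- Tregs, and 1360, 1409, 1833 and 1891 CPM in Tconv. All Eos- Treg libraries and 3 Eos+ Treg libraries were below all of Tconv. It fell by 0.61 on the log2 scale in Eos+ Tregs (edgeR adjusted p = 0.027), a call lost in 5 of 22 alternatives. Its change of -0.52 in Eos- Tregs was not called (adjusted p = 0.0895) but was with the replicate block (adjusted p = 0.0145) and in 4 other alternatives.

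mt-Cytb, the mitochondrial subunit of complex III, averaged 1219 ± 313 CPM in Eos+ Tregs and 1271 ± 168 CPM in Eos- Tregs, against 1748 ± 248 CPM in Tconv (SD, n = 4 each). Its log2 change was -0.52 in Eos+ Tregs (edgeR adjusted p = 0.0378) and -0.46 in Eos- Tregs (adjusted p = 0.0994, and 0.0346 with the replicate block). mt-Co2, which takes electrons from cytochrome c, averaged 674 ± 272, 753 ± 159 and 1112 ± 235 CPM in Eos+ Tregs, Eos- Tregs and Tconv (SD, n = 4 each), with log2 changes against Tconv of -0.72 (adjusted p = 0.0487) and -0.56 (adjusted p = 0.173). In Eos+ Tregs the call for mt-Co2 was lost in 11 of 22 alternatives and that for mt-Cytb in 6 of 22.

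The other 7 mitochondrial genes did not pass against Tconv in the fit of all 12 libraries without the replicate block. With the block mt-Nd2 passed in Eos- Tregs (edgeR adjusted p = 0.0340). In Eos+ Tregs mt-Nd4 passed without Eos+ Treg replicate 4 (adjusted p = 0.0431), and mt-Nd3 with copies and the block together (adjusted p = 0.0199). mt-Co1, the catalytic subunit of complex IV, averaged 1895 ± 555, 1801 ± 329 and 2281 ± 433 CPM in Eos+ Tregs, Eos- Tregs and Tconv, with log2 changes of -0.27 (edgeR adjusted p = 0.396) and -0.34 (adjusted p = 0.339). The complex I genes mt-Nd2, mt-Nd4, mt-Nd5 and mt-Nd6 had log2 changes of -0.38, -0.39, -0.26 and -0.37 in Eos+ Tregs, and of -0.52, -0.32, -0.43 and -0.41 in Eos- Tregs. mt-Nd3 had 5.08 to 12.99 CPM in Eos+ Tregs, 2.04 to 19.96 CPM in Eos- Tregs and 5.68 to 26.7 CPM in Tconv. With the counts of its copy Gm28438 added its change in Eos+ Tregs was -0.95 in place of -0.74. mt-Nd4l, at 0 to 1.61 CPM, gave no usable value. With all annotated copies added, 13 of 13 changes were below 0 in both comparisons, with medians of -0.52 and -0.51. With copies and the replicate block together, 7 mitochondrial genes were called lower in Eos+ Tregs and 7 in Eos- Tregs against Tconv.

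**Figure D4:**
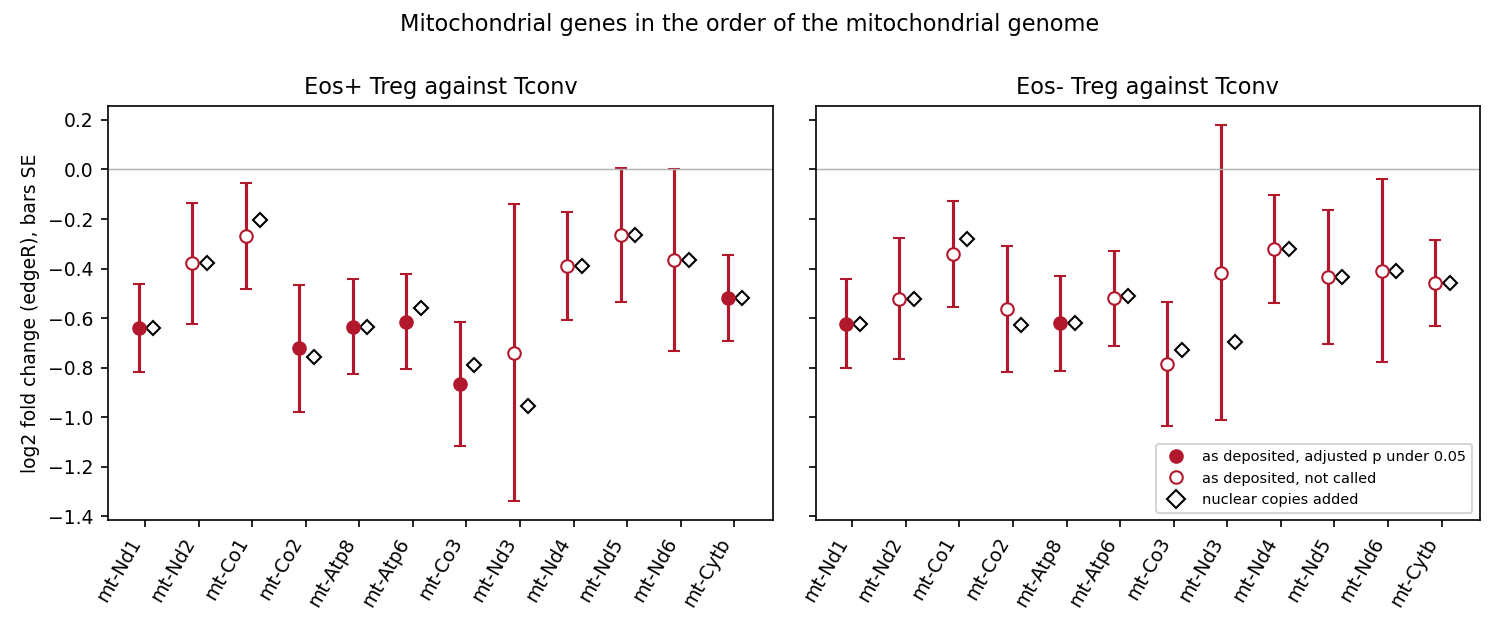
Log2 fold change of 12 mitochondrial genes against Tconv in Eos+ Tregs (left) and Eos- Tregs (right), in the order of the mitochondrial genome, with the SE of the edgeR fit as bars. Filled circles passed an adjusted p of 0.05, diamonds are fits with the nuclear copies added, and mt-Nd4l is left out for its low count; every point lies below 0.

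Among nuclear genes, Ndufaf7 differed between all 3 populations. It encodes the methyltransferase that modifies a core subunit of complex I during assembly, and lies at chr17:78937136-78948052 (mm10). It had 27.1, 30.6, 29.7 and 27.4 CPM in replicates 1 to 4 of Eos+ Tregs, 21.7, 20.5, 23.0 and 19.9 CPM in Eos- Tregs, and 16.9, 16.5, 16.6 and 17.6 CPM in Tconv. The 3 groups did not overlap, with Eos+ Tregs highest and Tconv lowest. The log2 change was 0.43 ± 0.10 (SE) between Eos+ and Eos- Tregs (edgeR adjusted p = 0.0117), 0.76 ± 0.10 between Eos+ Tregs and Tconv (adjusted p = 0.000101) and 0.33 ± 0.10 between Eos- Tregs and Tconv (adjusted p = 0.0456). The first pair of calls held in all 22 alternatives, while the third held in 6 of 22. A pseudogene with a short match, AC154652.2, held 2.76% to 9.48% of the counts of the pair.

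Ndufaf4, another complex I assembly factor, was lower in both Treg populations than in Tconv. It had 34.9, 24.6, 22.4 and 22.7 CPM in Eos+ Tregs, 26.9, 26.4, 22.02 and 27.3 CPM in Eos- Tregs, and 38.7, 37.3, 33.4 and 43.1 CPM in Tconv. Eos+ Treg replicate 1 reached into the Tconv range, and Eos- Tregs did not overlap Tconv. The log2 change was -0.54 ± 0.15 (SE) in Eos+ Tregs (edgeR adjusted p = 0.0164) and -0.57 ± 0.15 in Eos- Tregs (adjusted p = 0.0246). It was lost in Eos+ Tregs without Eos+ Treg replicate 3, and in Eos- Tregs without Eos- Treg replicate 3 or Tconv replicate 1, 2 or 4. Of the 8 assembly factors with an Ndufaf name, the other 6 were not called in any comparison.

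Ndufs4, a subunit near the NADH-binding end of complex I whose loss gives a fatal brain disease in mice, was lower in Eos+ Tregs than in both other populations. At chr13:114287795-114388258 (mm10), it had 56.1, 55.8, 46.4 and 57.0 CPM in Eos+ Tregs, 68.3, 78.6, 71.7 and 72.5 CPM in Eos- Tregs, and 66.6, 79.8, 67.8 and 90.4 CPM in Tconv. Eos+ Tregs lay below every library of the other groups, while Eos- Tregs and Tconv overlapped. The log2 change was -0.44 ± 0.11 (SE) against Eos- Tregs (edgeR adjusted p = 0.0167) and -0.50 ± 0.11 against Tconv (adjusted p = 0.0039), lower in 4 of 4 numbers in each. The first lost its call when Eos- Treg replicate 2 was left out, or Eos+ Treg replicate 3, and the second held in all 22 alternatives.

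Ndufb11, an X-linked membrane arm subunit, fell in both Treg populations. It had 79.5, 70.6, 68.6 and 79.1 CPM in Eos+ Tregs, 91.5, 83.9, 78.7 and 90.0 CPM in Eos- Tregs, and 102, 109, 110.3 and 137 CPM in Tconv. No Treg library reached the lowest Tconv library. Ndufb11 had a log2 change of -0.62 ± 0.10 (SE) in Eos+ Tregs (edgeR adjusted p = 0.00039) and -0.41 ± 0.10 in Eos- Tregs (adjusted p = 0.0135), in all 22 alternatives. Its exons share positions with Rbm10, and reads of the pair cannot be told apart without strand. Rbm10 was at 119 to 140 CPM in Eos+ Tregs, 135 to 152 CPM in Eos- Tregs and 120 to 142 CPM in Tconv. The other X-linked genes, Ndufa1 and Cox7b, were not called.

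Of the remaining complex I genes, Ndufb7 rose in Eos+ Tregs against Tconv, at 86.0 ± 2.61 against 69.5 ± 4.37 CPM (SD, n = 4 each; log2 change 0.31, edgeR adjusted p = 0.00817). It was lost without the libraries numbered 1, at an adjusted p of 0.0736. Ndufv3, an accessory subunit of the NADH-binding part, was lower at 57.3 ± 1.81 against 68.0 ± 3.75 CPM (log2 change -0.25, adjusted p = 0.0286), a call lost in 6 of 22 alternatives, the fit without the libraries numbered 1 among them. The most abundant nuclear complex I genes per kb, Ndufa1 and Ndufb8, averaged 77.1 ± 6.19 and 123 ± 11.3 CPM in Eos+ Tregs, 74.6 ± 8.62 and 119.7 ± 11.9 CPM in Eos- Tregs, and 79.5 ± 11.6 and 112 ± 6.61 CPM in Tconv (SD, n = 4 each).

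In complex II, Sdha, the flavoprotein that oxidises succinate, rose in Eos+ Tregs. It had 592, 558, 569.7 and 506 CPM in Eos+ Tregs, 561, 520.4, 501 and 485 CPM in Eos- Tregs, and 516, 469.7, 449.5 and 446 CPM in Tconv. Eos+ Treg replicate 4 overlapped the Tconv range, and each Eos+ Treg library was above the Tconv library of its number. The log2 change against Tconv was 0.24 ± 0.08 (SE; edgeR adjusted p = 0.0298), called in 15 of 22 alternatives. Its iron-sulfur partner Sdhb averaged 196 ± 9.37, 188 ± 28.4 and 211 ± 28.8 CPM in Eos+ Tregs, Eos- Tregs and Tconv and was not called.

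Complex III held 1 called gene in each direction in Eos+ Tregs against Tconv, 2 of 8 tested (25%), where 30.3% of all genes were called. Uqcrfs1, the Rieske iron-sulfur protein that starts electron transfer in the complex, had 80.1, 74.8, 86.9 and 91.1 CPM in Eos+ Tregs, 96.0, 95.6, 99.2 and 106 CPM in Eos- Tregs, and 102, 94.1, 121 and 136 CPM in Tconv. Eos+ Tregs lay below all other libraries. The log2 change against Tconv was -0.44 ± 0.11 (SE; edgeR adjusted p = 0.00848) in all 22 alternatives, and that against Eos- Tregs, -0.25, had an adjusted p of 0.148 and, under the replicate block, 0.0297. Uqcr11, a small subunit, was higher at 73.0 ± 7.85 against 58.1 ± 4.94 CPM in Tconv (SD, n = 4 each; log2 change 0.33, adjusted p = 0.0394), called in 13 of 22 alternatives. The core protein Uqcrc1 averaged 404 ± 52.8, 362 ± 44.1 and 347 ± 27.6 CPM in Eos+ Tregs, Eos- Tregs and Tconv and was not called.

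Cox7a2l, known in mice as the factor that joins complexes III and IV into a supercomplex, was highest in Eos- Tregs. At chr17:83501918-83517330 (mm10), it had 107, 116, 117 and 138 CPM in Eos+ Tregs, 129, 179, 174 and 192 CPM in Eos- Tregs, and 96.8, 113, 113 and 126 CPM in Tconv. Eos- Treg replicate 1 was the only Eos- Treg library below an Eos+ Treg library, and Eos- Tregs did not overlap Tconv. The log2 change was -0.49 ± 0.12 (SE) in Eos+ against Eos- Tregs (edgeR adjusted p = 0.0163) and 0.59 ± 0.12 in Eos- Tregs against Tconv (adjusted p = 0.00675). The first lost its call when Eos+ Treg replicate 1 was left out, or Eos- Treg replicate 2 or 4, and the second held in all 22 alternatives. Between Eos+ Tregs and Tconv it was not called.

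The related complex IV subunit Cox7a2 ran differently, with 60.1 ± 9.18 CPM in Eos+ Tregs, 72.2 ± 8.34 CPM in Eos- Tregs and 80.5 ± 11.4 CPM in Tconv (SD, n = 4 each). It fell in Eos+ Tregs against Tconv by 0.42 on the log2 scale (edgeR adjusted p = 0.0265). That call was lost in 5 of 22 alternatives, the fits without Tconv replicate 4 and without the libraries numbered 1 among them. Cox6a1, a regulatory subunit, fell by 0.27 (adjusted p = 0.0198), at 138 ± 6.65 against 166 ± 11.8 CPM, a call lost in 3 of 22 alternatives. Cox4i1, the most abundant nuclear subunit of the complex per kb, averaged 221 ± 19.3, 246 ± 21.5 and 225 ± 13.2 CPM in Eos+ Tregs, Eos- Tregs and Tconv and was not called.

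**Figure D5:**
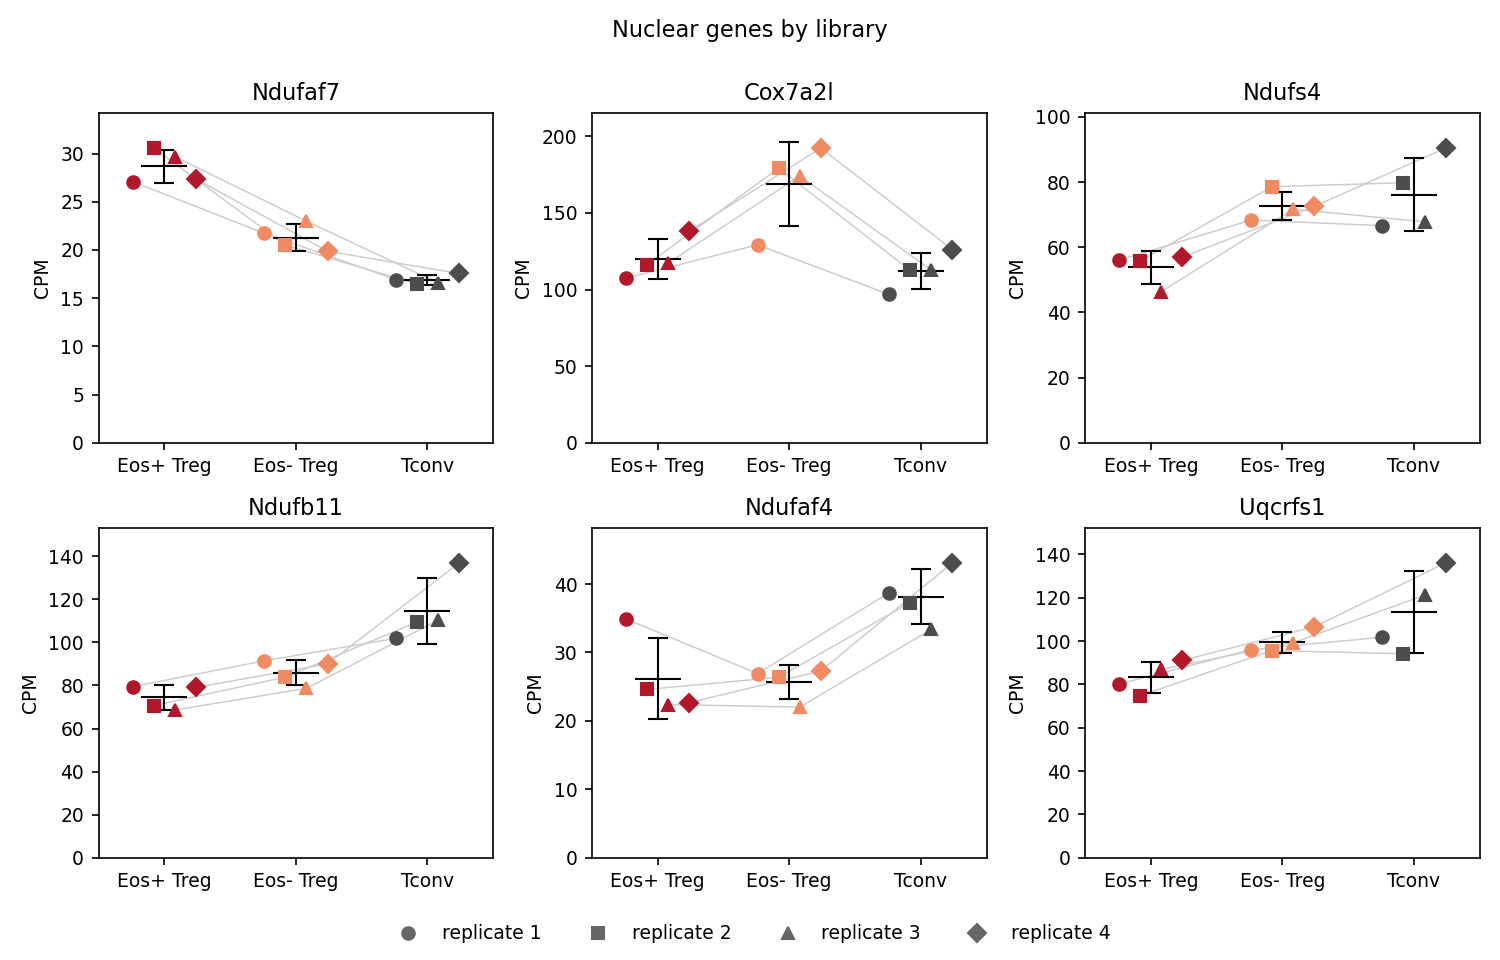
CPM of 6 nuclear respiratory chain genes in each library, with the mean and SD of the 4 libraries in black and grey lines joining libraries of the same number. Ndufaf7 separates all 3 groups at 27.1 to 30.6, 19.9 to 23.0 and 16.5 to 17.6 CPM, Cox7a2l is highest in Eos- Tregs, and the other 4 genes are lowest in Eos+ or in both Treg populations.

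In complex V, 3 genes fell and 1 rose in Eos+ Tregs against Tconv, 4 of 17 tested (23.5%), where 30.3% of all genes were called. Atp5g3, 1 of the 3 genes for the same mature c-ring protein, averaged 192 ± 14.1, 209.6 ± 14.8 and 240.2 ± 23.7 CPM in Eos+ Tregs, Eos- Tregs and Tconv, and its log2 change was -0.32 (edgeR adjusted p = 0.0128). The others of this set, Atp5g1 at 113 ± 12.4, 109 ± 9.84 and 124 ± 6.32 CPM and Atp5g2 at 44.2 ± 7.94, 40.3 ± 11.4 and 36.8 ± 2.15 CPM, were not called. Atp5g2 shared 645 identical bases with the pseudogene Gm10175, which held 31.3% to 44.7% of the counts of the pair. Atp5c1, the gamma subunit in the rotor, fell by 0.24 on the log2 scale (adjusted p = 0.0276), as did Atp5f1, subunit b of the stalk (adjusted p = 0.0427). Atp5d, the delta subunit next to the gamma subunit, was higher by 0.23 (adjusted p = 0.0199), at 197 ± 13.2 against 168 ± 6.80 CPM (SD, n = 4 each). Atp5f1 shares exon positions with Wdr77 and Atp5d with Cbarp, so these values are uncertain. The calls of Atp5c1, Atp5f1 and Atp5d were lost in 6, 7 and 5 of 22 alternatives. The beta subunit Atp5b averaged 1139 ± 63.5, 1173 ± 126 and 1265 ± 51.2 CPM and was not called.

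Promoters were read to see what the nuclear genes share in sequence. NRF1, GABPA of the ETS family and YY1 are known regulators of nuclear respiratory genes. RefSeq windows from 250 bases before to 50 after the start (GRCm38.p6) were found for 74 of 97 nuclear symbols, 79 windows in all. The NRF1 motif, GCGCA then any base then GCGC, searched like the others on both strands, was in 20 of 79 windows (25.3%), beside 6.60% of 20150 windows of protein-coding genes and 4.6% of all 32851 windows. The ETS motif CCGGAAG was in 22.8%, beside 11.9% and 8.86%, and the YY1 motif AAGATGGC in 12.7%, beside 3.11% and 2.75%. Windows of called genes held the NRF1 motif in 5 of 17 cases and windows of tested genes called in no comparison in 15 of 60. For the ETS motif these were 3 of 17 and 15 of 60, and for the YY1 motif 1 of 17 and 9 of 60. No matches of different motifs shared bases. For 5 of the called genes, picked after their values were seen, 1 NRF1 or ETS match each is shown with the motif in capitals, on the strand of the gene. Sdha held 3 NRF1 matches and Cox6a1 held 2 and an ETS match, and the called genes Atp5c1, Atp5g3 and Ndufs4 also held a match.
Sdha, NRF1, chr13:74350276-74350305, minus strand: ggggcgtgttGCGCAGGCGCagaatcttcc
Cox6a1, NRF1, chr5:115349056-115349085, minus strand: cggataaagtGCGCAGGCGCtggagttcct
Ndufaf4, NRF1, chr4:24897960-24897989, plus strand: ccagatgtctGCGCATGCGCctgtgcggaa
Uqcr11, ETS, chr10:80406870-80406898, minus strand: ttctctcctccCCGGAAGtagatgtcaat
Ndufb7, ETS, chr8:83566727-83566755, plus strand: gcctagatgacCCGGAAGacactgaaggg
Sdha and Uqcr11 were higher in Eos+ Tregs than in Tconv, Cox6a1 and Ndufaf4 lower, so NRF1 matches stood before genes of either direction, and Ndufb7 was higher. A match describes the letters and is not a site.

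Genes around the chain that the symbol rule left out were counted by list, with the 3 comparisons in the order Eos+ against Eos- Tregs, Eos+ Tregs against Tconv and Eos- Tregs against Tconv. Over all genes, 9.82%, 17.3% and 8.76% were called higher and 6.45%, 13% and 5.89% lower, against which the counts of each list below are to be read. Of 40 tested assembly factors outside the Ndufaf names, 1, 6 and 3 were higher and 0, 10 and 4 lower. Sdhaf1, which helps insert iron-sulfur clusters into Sdhb, was 143 ± 11.2 CPM in Eos+ Tregs, 111 ± 13.1 CPM in Eos- Tregs and 50.7 ± 8.66 CPM in Tconv, 2.82-fold higher in Eos+ Tregs (edgeR adjusted p = 2.19e-06) and 2.19-fold higher in Eos- Tregs (adjusted p = 7.34e-05) than in Tconv. Acad9, a complex I assembly factor, was 84.5 ± 8.41, 66.2 ± 6.07 and 50.2 ± 4.17 CPM and differed in all 3 comparisons (adjusted p = 0.0309, 0.000101 and 0.018). Cox10, which makes the heme of complex IV, was 32.2 ± 1.75 CPM in Eos+ Tregs and 30.1 ± 5.98 CPM in Eos- Tregs, against 51.3 ± 4.70 CPM in Tconv (adjusted p = 0.00204 in each, SD, n = 4).

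Of 24 genes for copying and transcribing mitochondrial DNA and handling its RNA, 1, 0 and 1 were higher and 0, 3 and 0 lower. The 3 lower ones of 24 in Eos+ Tregs against Tconv, a share near the 13% of all genes, were Ssbp1, the mitochondrial single-strand DNA binding protein, at 79.2 ± 11.2 against 103.5 ± 6.38 CPM (edgeR adjusted p = 0.00945), Mtpap, the mitochondrial poly(A) polymerase (adjusted p = 0.0289), and Trmt10c, a part of mitochondrial RNase P (adjusted p = 0.0385). Mitochondrial ribosomal proteins were called in 3, 10 and 3 of 78 cases, with 2, 4 and 1 higher, where 16.3%, 30.3% and 14.6% of all genes were called. Of 16 genes of the TCA cycle and pyruvate dehydrogenase, 1, 2 and 2 were higher and 1, 3 and 1 lower. Suclg2, the GTP-forming subunit of succinyl-CoA ligase, was higher in Eos+ Tregs, at 83.9 ± 17.9 CPM in Eos+ Tregs against 39.9 ± 5.36 CPM in Tconv (SD, n = 4 each; adjusted p = 0.000144).

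Of 23 electron carriers and membrane carriers, 3, 5 and 1 were higher and 0, 4 and 3 lower. Coq8a, needed for making coenzyme Q, was 78.5 ± 9.86 CPM in Eos+ Tregs, 38.05 ± 5.35 CPM in Eos- Tregs and 32.8 ± 4.85 CPM in Tconv, 2.06-fold higher in Eos+ than in Eos- Tregs (edgeR adjusted p = 0.000346). Etfb, of the flavoprotein that feeds electrons from fatty acid oxidation, was 84.5 ± 7.74, 53.2 ± 5.17 and 49.3 ± 5.69 CPM (adjusted p = 0.00118 between Eos+ and Eos- Tregs). The ADP/ATP carriers ran in opposite directions in Eos+ Tregs against Tconv, with Slc25a4 at 163 ± 22.6 against 117 ± 18.2 CPM (adjusted p = 0.00719) and Slc25a5 at 626 ± 56.9 against 905 ± 88.4 CPM (adjusted p = 0.00445). Of 13 tested regulators of nuclear respiratory genes, 2, 2 and 2 were higher and 1, 3 and 0 lower. Hif1a, the oxygen-sensing factor, was 509.7 ± 41.1 CPM in Eos+ Tregs, 269 ± 16.8 CPM in Eos- Tregs and 175 ± 13.7 CPM in Tconv (adjusted p = 1.88e-05, 7e-08 and 0.000279 in the 3 comparisons, SD, n = 4). Yy1 and Esrra were lower in Eos+ Tregs than in Tconv, at 26.8 ± 5.95 against 42.4 ± 2.39 CPM (adjusted p = 0.00853) and 14.0 ± 3.12 against 20.7 ± 1.13 CPM (adjusted p = 0.0167).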

How the data were processed

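Total RNA was converted with the SMARTer Ultra Low Input and Nextera XT kits, which do not mark strand, per the labels' protocols. Reads were handled with RSEM 1.3.1, STAR 2.7.0f and cutadapt 1.18 on mm10, as the submitters' processing notes list them; their settings are not given in the sources used here. The authors deposited RSEM expected counts per gene, of which 9.54% to 10.7% per library were not whole, since RSEM divides reads that match several genes between them. Libraries totalled 23.9 to 37.9 M expected counts; intervals and limits from counts cover counting error only.

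Expected counts were rounded and filtered (edgeR's filterByExpr, 15361 genes kept). They were scaled by TMM and tested with edgeR 4.0.16 (R 4.3.3), by a two-sided quasi-likelihood F test with 1 mean per group over all 12 libraries, with Benjamini-Hochberg adjustment over all tested genes and a threshold of 0.05. SEs were derived from the F statistic and are approximate. CPM are TMM-scaled. Copies were sought among annotated GENCODE M21 transcripts with blastn 2.17.0 (at least 100 bases at 95% identity). The test was checked on simulated data. Same-numbered libraries deviated together (correlations of 0.138 to 0.318 in 12 pairs, against -0.226 to 0.0695 in 36 others), so the replicate number was also fitted as a block. Within-group pairs of libraries differed beyond sampling noise and none was merged. Genes named are members called in any comparison, the 13 mitochondrial genes, the most abundant nuclear genes of each complex and tissue isoforms; of the other lists, some of the called genes with the smallest adjusted p per direction are named. Genes named under the block or for their X linkage were chosen after their values were seen. The members and lists were chosen with earlier results of these data known. Alternatives used DESeq2 1.42.0, limma-voom 3.58.1, other scaling and filters, and left-out libraries.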

Additional observations from a re-analysis of the deposited data

Results flagged for a closer look

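In 8 of 138 groups of 4 libraries, 1 library lay far from the other 3; chance gives about 1 in 20. Eos+ Treg replicate 3 was lowest for Ndufs4 (46.4 CPM, the others 55.8 to 57.0), for mt-Atp8 (32.9 CPM, the others 55.9 to 57.1), for Cox6a1 (128 CPM, the others 139.9 to 142) and for Cox7a1 (0.3499 CPM, the others 0.459 to 0.470). Eos+ Treg replicate 1 was highest for Cox6a2 at 0.314 CPM, the others 0 to 0.0293. Eos- Treg replicate 3 was lowest for Cox6b2 at 0.518 CPM, the others 0.948 to 1.03. Tconv replicate 4 was highest for Cox7a2 at 97.4 CPM, the others 72.9 to 76.8. Tconv replicate 3 was lowest for Cox6a2 at 0.435 CPM, the others 0.781 to 0.841.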

How the results depend on the processing

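Each comparison was repeated under 22 alternatives. None of the called genes changed sign. With the replicate block, which follows the shared numbers of paired libraries, the nuclear counts were 8 (Eos+ against Eos- Tregs), 27 (Eos+ Tregs against Tconv) and 10 (Eos- Tregs against Tconv), and the mitochondrial count in Eos- Tregs against Tconv was 6. With copies added and the block together, chosen after seeing the data, these were 8, 27, 10 and 7. All calls of the fit without the block were kept under it. Without a filter on low counts 9 nuclear genes were called in Eos+ Tregs against Tconv. In Eos- Tregs against Tconv, DESeq2 called 8 nuclear and 5 mitochondrial genes, limma-voom 1 mitochondrial gene, the fit on 8 libraries 5, and the fit without the libraries numbered 1 called 1. The cause of these shifts was not tested. Leaving out each library in turn gave 1 to 5, 8 to 17 and 2 to 7 nuclear calls in the 3 comparisons, and 0, 0 to 7 and 0 to 4 mitochondrial calls. The mitochondrial to nuclear log2 ratio then differed by -0.21 to 0.10, -0.65 to -0.33 and -0.55 to -0.31. Calls held in all 22 alternatives for 1 of 3 genes (Ndufaf7), 4 of 21 (Ndufaf7, Ndufs4, Ndufb11, Uqcrfs1) and 2 of 6 (Cox7a2l, Ndufb11). Depth limits mt-Nd4l, Cox6a2, Cox6b2 and Cox7a1, at about 1 CPM or less.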
